A study of Bos taurus with 12 samples.

Results

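The nuclear genes for subunits of the mitochondrial respiratory chain were followed in bovine skeletal myoblasts and in the myotubes derived from them. Members were taken by gene symbol alone, as NDUF genes of the A, B, C, S and V series, SDHA to SDHD, the UQCR genes and the COX4 to COX8 genes. The rule found 60 members among the 18436 genes of the deposited expression table. By symbol, 35 belong to complex I, 4 to complex II, 8 to complex III and 13 to complex IV. Of 67 protein-coding RefSeq symbols that match the rule, 60 were in the table, and the other 7 (COX4I2, COX6C, COX7B, COX7C, COX8C, NDUFA1 and NDUFB11) were not analysed here. The members lie on 21 autosomes.

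The respiratory chain sits in the inner mitochondrial membrane. Complex I takes electrons from NADH and complex II takes them from succinate, both pass them to ubiquinone, complex III hands them to cytochrome c, and complex IV gives them to oxygen. Complexes I, III and IV pump protons as they do so, and ATP synthase uses the proton gradient to make ATP. Apart from complex II, which is wholly nuclear, each complex combines nuclear subunits with a few core subunits from mitochondrial DNA. Skeletal muscle is known for several complex IV subunits that exist as a muscle isoform beside a general isoform.

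Primary myoblasts came from the longissimus dorsi, a back muscle, of a newborn animal of the Qinchuan breed. The growth medium group (GM) was harvested as proliferating cells in medium with 20% fetal bovine serum, and the differentiation medium group (DM) after 4 days in medium with 2% horse serum. Each group had 3 input RNA-seq libraries and 3 libraries immunoprecipitated (IP) with an antibody against N6-methyladenosine (m6A), the commonest internal modification of mRNA. No genotype or drug treatment differed between the groups. The sources name a single animal and do not say how the cultures were separated, so p-values measure the spread between these samples, which may be technical. Serum and time in culture change together with differentiation and cannot be told apart from it.

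Expression was read as FPKM (fragments counted per kilobase of transcript, relative to the mapped fragments of the library), a level per length that allows genes to be ranked. FPKM summed over all genes to between 415740 and 434458 in the GM inputs and between 386436 and 390827 in the DM inputs, and read depth cannot be taken from these values. All 5 proliferation markers fell in DM, 3 of 4 myoblast markers fell, and 6 of 8 myotube markers rose while ACTA1, skeletal muscle alpha-actin, fell. Endothelial and immune markers were near 0 (summed levels of 0.260 to 0.520 and 0.869 to 1.94 FPKM), and adipocyte markers summed to between 2.35 and 3.16 FPKM. Fibroblast markers, led by collagen genes, summed to between 16030 and 16185 FPKM in GM and between 16869 and 17963 FPKM in DM, with 3 of 8 higher and 1 lower. Their part in the results below was not tested, and in such bulk samples fewer cells of a type and less RNA per cell cannot be told apart.

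GM replicate 3 stood apart for these genes. Of the 58 members that could be tested, 43 had their highest GM value in that library (74.1%), against 35.0% of all tested genes. The median member was 1.18 times its mean in the other two GM libraries there, against 0.985 times for all genes. The map of levels by library shows this as a column of deep red for many small subunits, and for the results that it moved most the value without that library is given.

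**Figure D1:**
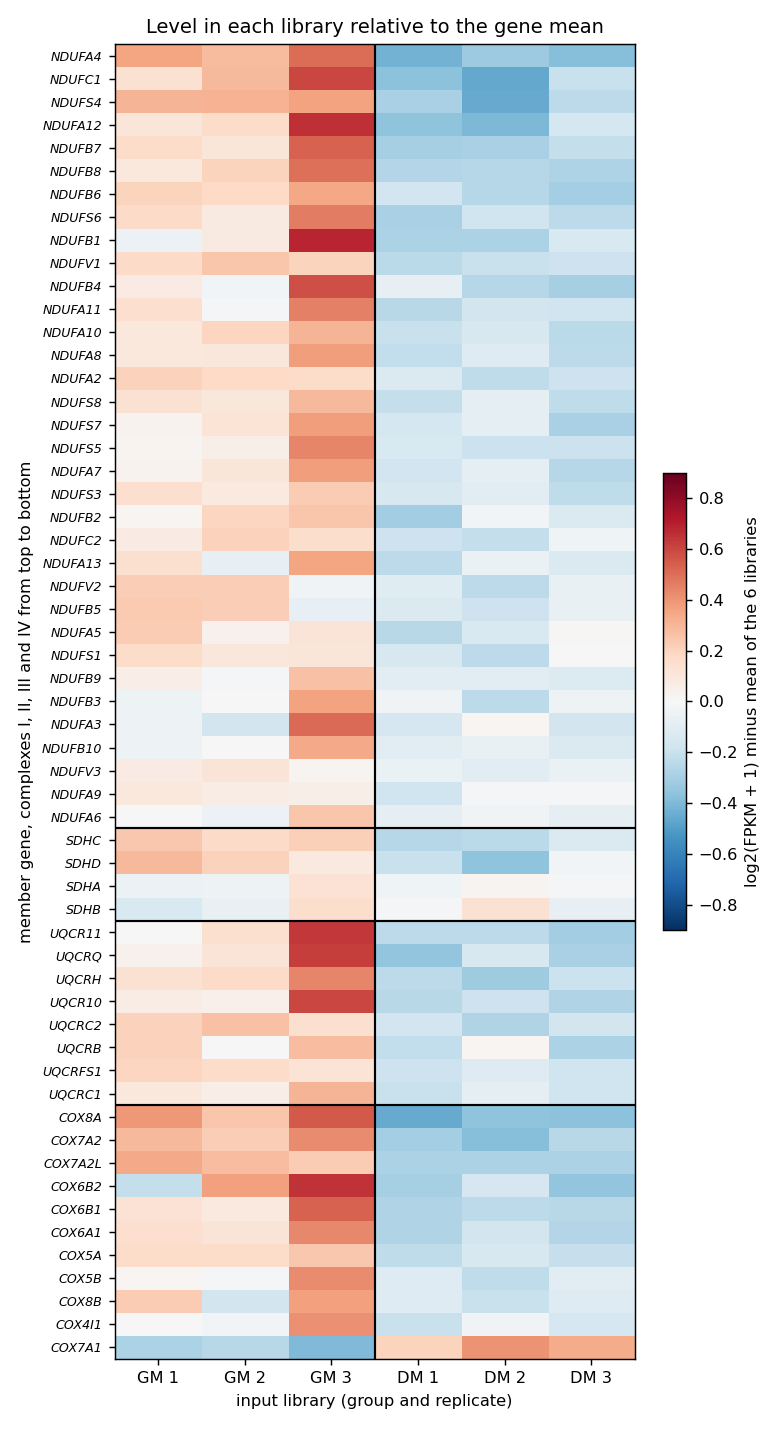
Level of 57 tested members (rows, by complex) in the 6 input libraries (columns), as log2(FPKM + 1) minus the mean of the gene over the 6 libraries; red is above and blue below that mean. The DM columns are mostly blue, GM 3 is the deepest red for many genes, and COX7A1 in the last row has the opposite pattern.

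mRNA of the respiratory chain was lower in myotubes as a group of genes, with 1 clear exception. Of the 58 members tested, 44 fell in DM and 1, COX7A1, rose, at a Benjamini-Hochberg adjusted p under 0.05 from limma over all 12302 tested genes. Among all tested genes, 26.7% were lower and 16.1% higher by the same call. The falls were modest. Only 6 members fell by over 1.5-fold (background 6.88% of all genes), and COX7A1 was the sole member to rise by as much (background 4.89%). In 47 members every DM library lay below every GM library (background 33.0%), and in 1 every DM library lay above (background 21.1%). The median log2 fold change, DM over GM, was −0.38 for the members, −0.05 for all tested genes and −0.08 for tested genes of at least 10 FPKM. In that abundant class, which holds 55 of the members, 44 members and 33.8% of the 5365 genes were lower.

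Together the members took up 0.847%, 0.837% and 0.966% of the summed FPKM in the GM libraries and 0.723%, 0.745% and 0.727% in the DM libraries. The groups did not overlap, and GM replicate 3 was the highest. Of the 60 members, 41 lay above the 90th percentile of mean levels in the table. The 13 tested members that were not called were NDUFA3, NDUFA6, NDUFA9, NDUFA13, NDUFB1, NDUFB3 and NDUFB10 of complex I, SDHA and SDHB of complex II, and COX4I1, COX5B, COX6B2 and COX8B of complex IV. COX6A2 and COX7B2 lay below the filter of a mean of 0.5 FPKM and were not tested.

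**Figure D2:**
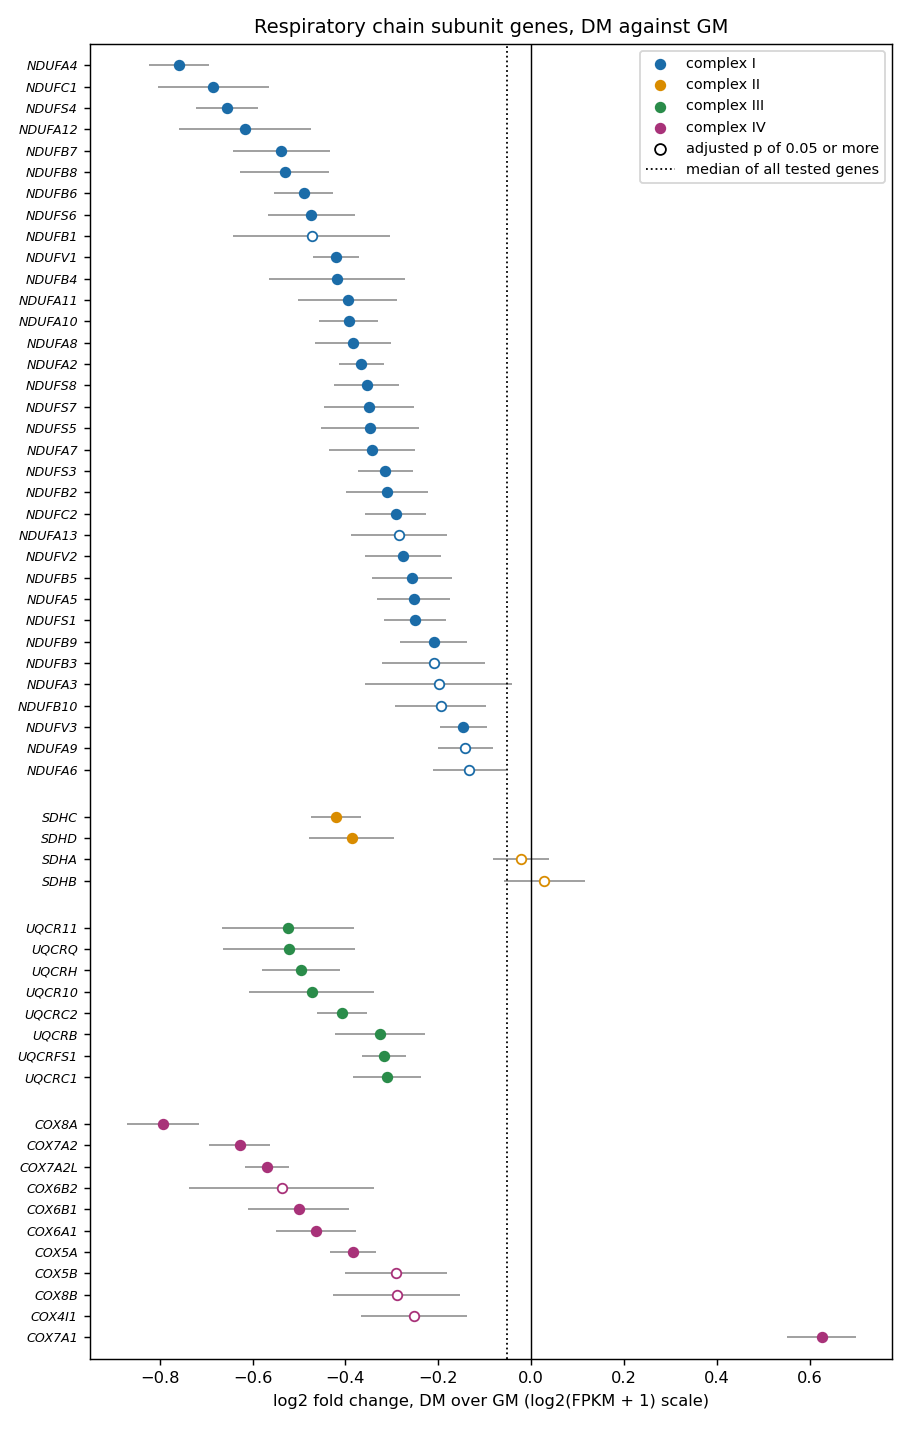
Log2 fold change of 57 tested members, DM over GM, with its standard error (bars) from limma on log2(FPKM + 1), 3 libraries a group, ordered within each complex. Filled points passed an adjusted p of 0.05, 43 on the left of 0 and COX7A1 on the right; the dotted line is the median of all tested genes, −0.05.

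The number of members called lower depended on how the libraries were scaled. Setting each library to the same sum (TPM) raised the median of all genes by 0.10 on the log2 scale, from −0.05 to 0.05. It left 29 members lower and 1 higher, beside 16.6% and 24.4% of all tested genes. The share of lower genes among all calls moved from 62.4% to 40.5%, and to 51.0% with median-of-ratios size factors. Size factors left 34 members and 21.6% of all genes lower. Without GM replicate 3, 44 of 56 tested members and 28.3% of all genes were lower. The member median was then −0.30, and 4 members fell by over 1.5-fold. The member median minus that of all genes was −0.32 as deposited, −0.31 with TPM or size factors, and −0.23 without GM replicate 3. The cumulative plot sets these distributions side by side.

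**Figure D3:**
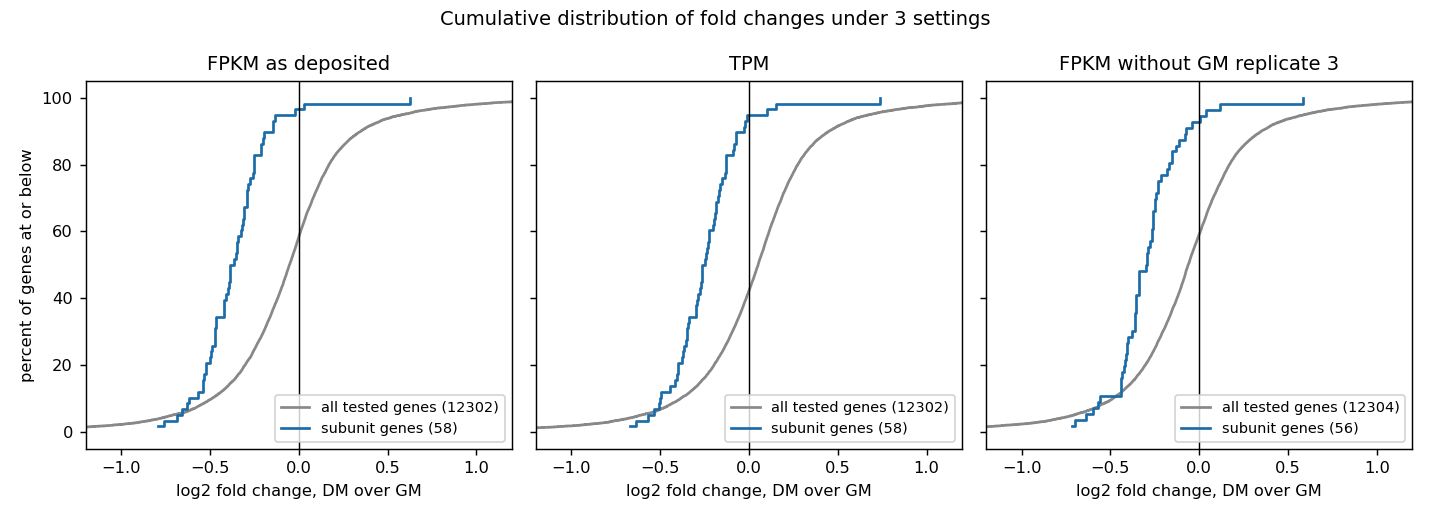
Cumulative share of genes (percent) against log2 fold change, DM over GM, for all tested genes (grey) and the subunit genes (blue), with FPKM as deposited, with TPM, and without GM replicate 3. In each panel the blue line lies to the left of the grey line, with a median of −0.38, −0.25 and −0.30.

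Complex I, NADH dehydrogenase, had 28 of 35 members lower and none higher by the limma call, beside 26.7% and 16.1% of all tested genes. The median of its log2 fold changes was −0.35, with all 35 estimates below 0. Its core subunits outside the membrane include those that carry the flavin and the iron-sulfur clusters that lead electrons to ubiquinone. Of the core subunits, NDUFS1, NDUFS3, NDUFS7, NDUFS8, NDUFV1 and NDUFV2 each fell. These 6 had log2 fold changes from −0.42 to −0.25 and a median of −0.33. With TPM, NDUFS1, NDUFS7 and NDUFV2 were not called (limma, adjusted p = 0.18, 0.07 and 0.22), and 16 members of complex I were lower. Of 28 members by symbol that are mostly accessory subunits around the core, 21 fell, with a median of −0.36. In GM replicate 3 the median ratio to the other two GM libraries was 1.04 for these 6 and 1.23 for the 28. Without that library the median log2 fold changes were −0.29 and −0.27. This division by role was made after the values were seen.

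The largest fall of complex I by symbol was that of NDUFA4, a small protein first described in complex I and now placed in complex IV. NDUFA4 stood at 124, 118 and 137 FPKM in GM and at 71.5, 76.9 and 73.6 FPKM in DM. All 3 DM libraries lay far below the lowest GM library. The log2 fold change was −0.76 ± 0.06 (SE), with an adjusted p of 4.5e-05. NDUFS4, an accessory subunit next to the NADH-oxidising end that is known from Leigh syndrome, had 21.2, 21.2 and 22.1 FPKM in GM and 13.6, 12.1 and 14.2 FPKM in DM. Its GM values were nearly the same, GM replicate 3 included, and it fell by 0.66 ± 0.07 on the log2 scale (limma, adjusted p = 0.00012).

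NDUFC1, an accessory subunit of the membrane arm, had 18.1, 20.3 and 25.4 FPKM in GM and 12.5, 11.6 and 14.2 FPKM in DM. Its fold change was −0.68 ± 0.12 (limma, adjusted p = 0.0023) and −0.56 without GM replicate 3. NDUFA12, a partner of NDUFS4 at the same end of the complex, was the least abundant member of complex I, at 10.8, 11.2 and 16.2 FPKM in GM and 7.50, 7.28 and 8.78 FPKM in DM. The groups did not overlap, but GM replicate 3 lay well above the other two. The fold change of −0.62 ± 0.14 (limma, adjusted p = 0.0089) shrank to −0.44 without it. NDUFB7, at the membrane arm on the side of the intermembrane space, went from 67.2 ± 11.3 FPKM (SD, n = 3) to 45.6 ± 1.49 FPKM, a log2 fold change of −0.54 ± 0.10 (limma, adjusted p = 0.0038), and of −0.41 without GM replicate 3.

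NDUFA3, a membrane-arm subunit, was the most abundant member of complex I over the 6 libraries and was not called. It had 103, 94.2 and 152 FPKM in GM and 95.4, 107 and 94.4 FPKM in DM. The groups overlapped, and the 152 FPKM of GM replicate 3 set the GM mean apart. The log2 fold change was −0.20 (95% interval −0.56 to 0.17, limma adjusted p = 0.35), and it turned to 0.01 without GM replicate 3.

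In complex II, succinate dehydrogenase, 2 of 4 members fell and none rose, beside 26.7% and 16.1% of all tested genes. Calls in complex II divided by the role of the subunit. SDHC and SDHD anchor the enzyme in the membrane, and both fell. SDHC had 57.6, 54.8 and 56.6 FPKM in GM and 40.5, 40.8 and 44.3 FPKM in DM, with no overlap, and a log2 fold change of −0.42 ± 0.05 (limma, adjusted p = 0.00042). SDHD, the least abundant of the 4, had 39.8, 37.4 and 34.4 FPKM in GM and 28.1, 25.0 and 31.8 FPKM in DM, also with no overlap. It fell by 0.39 ± 0.09 on the log2 scale (limma, adjusted p = 0.0098), and with TPM its adjusted p was 0.061, the highest of its alternatives, which ran down to 0.0052.

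SDHA, the flavoprotein that oxidises succinate, and SDHB, the iron-sulfur protein that passes the electrons on, did not pass the test. SDHA had 60.5, 60.9 and 68.9 FPKM in GM and 61.1, 63.9 and 62.0 FPKM in DM, with DM values inside the GM range. Its log2 fold change was −0.02 (95% interval −0.16 to 0.12, limma adjusted p = 0.80), and it was 0.10 with TPM. SDHA overlaps LRRC14B on the same strand in the table, so reads of the 2 genes may not be separable. SDHB, the most abundant of the 4, had 68.1, 71.9 and 84.2 FPKM in GM and 74.1, 82.6 and 71.6 FPKM in DM, again overlapping. Its log2 fold change was 0.03 (95% interval −0.17 to 0.23, limma adjusted p = 0.83). The ratio of SDHA plus SDHB to SDHC plus SDHD, which no scaling of a library can change, was 1.32, 1.44 and 1.68 in GM and 1.97, 2.23 and 1.75 in DM. The DM values lay above the GM values, with the smallest gap between GM replicate 3 and DM replicate 3. This ratio was chosen after the values were seen and was not tested.

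Complex III, the cytochrome bc1 complex, had all 8 members lower by the limma call, beside 26.7% of all tested genes. The median of the 8 log2 fold changes was −0.44. With TPM 6 of the 8 were lower (16.6% of all tested genes), and without DM replicate 3 only 4 were (22.8%). In every setting UQCRC2, UQCRFS1 and UQCRH were lower. The 3 large subunits are UQCRC1 and UQCRC2, the core proteins on the matrix side, and UQCRFS1, the Rieske iron-sulfur protein. UQCRC2 had 77.3, 80.4 and 73.9 FPKM in GM and 59.1, 55.2 and 59.6 FPKM in DM, with no overlap and little spread within a group. Its log2 fold change was −0.41 ± 0.05 (limma, adjusted p = 0.00055). UQCRFS1 and UQCRC1 had log2 fold changes of −0.32 ± 0.05 and −0.31 ± 0.07.

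The 5 small subunits had a median log2 fold change of −0.50 against −0.32 for the large ones, a division made after the values were seen, and they stood higher in GM replicate 3. Their median ratio in that library to the other two was 1.46, against 0.960 for the large subunits. UQCR11, UQCRQ and UQCR10 are short proteins at the edge of the complex. UQCR11 had 104, 115 and 162 FPKM in GM and 88.3, 88.0 and 83.4 FPKM in DM, a log2 fold change of −0.52 ± 0.14 (limma, adjusted p = 0.018). UQCRQ had 74.9, 78.9 and 113 FPKM in GM and 56.7, 65.8 and 59.3 FPKM in DM, −0.52 ± 0.14 (limma, adjusted p = 0.019). In both, the groups were apart but GM replicate 3 was far above the rest.

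UQCR10 went from 138 ± 31.7 to 97.2 ± 3.05 FPKM (SD, n = 3), −0.47 ± 0.14 on the log2 scale (limma, adjusted p = 0.023, and 0.051 with TPM). Without GM replicate 3 these 3 genes were at −0.34, −0.34 and −0.29, still called, and the median of the 5 small subunits was −0.34, equal to that of the large ones at 2 decimals. UQCRH, the hinge protein that helps cytochrome c dock, was the least abundant member of the complex and went from 44.7 ± 5.45 to 31.3 ± 1.40 FPKM, −0.50 ± 0.08 (limma, adjusted p = 0.002). UQCRB, a ubiquinone-binding subunit, was the most abundant of all members. It had 350.1, 305 and 369 FPKM in GM and 260.3, 307 and 249 FPKM in DM. DM replicate 2 reached into the GM range, and the log2 fold change was −0.33 ± 0.10 (limma, adjusted p = 0.026). The call was lost with TPM (−0.20, limma adjusted p = 0.10) and without GM replicate 3 (−0.27, limma adjusted p = 0.059), among other settings.

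Complex IV, cytochrome c oxidase, held the most varied members. Of 11 tested, 6 fell and 1 rose, beside 26.7% and 16.1% of all tested genes, and the median log2 fold change was −0.46. COX8A, the general isoform of the smallest subunit, fell the most of the called members on this scale. It had 136, 123 and 152 FPKM in GM and 75.0, 80.2 and 79.6 FPKM in DM, with a wide gap between the groups. The log2 fold change was −0.79 ± 0.08 (limma, adjusted p = 9.9e-05), and −0.72 without GM replicate 3.

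COX7A2, the general isoform of subunit 7A, had 132, 125 and 145 FPKM in GM and 86.7, 82.1 and 90.0 FPKM in DM, and it fell by 0.63 ± 0.07 on the log2 scale (limma, adjusted p = 0.00014). COX7A2L, a relative of the 7A subunits known for joining complexes III and IV into supercomplexes, had 81.2, 77.8 and 75.0 FPKM in GM and 52.2, 52.3 and 52.2 FPKM in DM. Its DM values were almost equal, GM replicate 3 was its lowest GM value, and it fell by 0.57 ± 0.05 on the log2 scale (limma, adjusted p = 4.2e-05). COX6B1, the general 6B isoform on the intermembrane space side, had 122, 118 and 162 FPKM in GM and 92.3, 94.5 and 93.7 FPKM in DM, −0.50 ± 0.11 (limma, adjusted p = 0.0067), and −0.36 without GM replicate 3. COX6A1, the general 6A isoform, had 110.0, 107 and 134 FPKM in GM and 82.0, 88.2 and 82.5 FPKM in DM, −0.46 ± 0.09 (limma, adjusted p = 0.003). The 2 groups of libraries were apart for each of these 4 genes.

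COX4I1, the general isoform of subunit 4 and the most abundant member of complex IV, had 135, 133 and 180.4 FPKM in GM and 118, 133 and 122 FPKM in DM. DM replicate 2 and GM replicate 2 were nearly level, and the log2 fold change of −0.25 ± 0.11 did not pass (limma, adjusted p = 0.11). It was −0.11 without GM replicate 3 and −0.13 with TPM. COX5A, one of the matrix-side subunits, was lower (−0.38 ± 0.05), while its partner COX5B stood at −0.29 ± 0.11 with an adjusted p of 0.066 (limma). Without GM replicate 3 COX5B was at −0.15 and was called (limma, adjusted p = 0.045), as it was without GM replicate 2 (−0.37, limma adjusted p = 0.040) and with the replicate number as a block (limma, adjusted p = 0.037).

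COX7A1, the heart and skeletal muscle isoform of subunit 7A, was the sole member to rise. It had 6.06, 6.22 and 5.52 FPKM in GM and 8.88, 10.4 and 9.83 FPKM in DM. Every DM library was above every GM library. The log2 fold change was 0.63 ± 0.07 (limma, adjusted p = 0.00029), and it was 0.58, just under 1.5-fold, without GM replicate 3 or without DM replicate 2. In DM its level was still far below that of COX7A2.

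The other restricted isoforms were close to absent. COX6A2, a heart and muscle isoform, had 0.124, 0.127 and 0.0685 FPKM in GM and 0.121, 0.253 and 0.106 FPKM in DM. COX8B, a muscle isoform in cattle, had 0.778, 0.357 and 0.968 FPKM in GM and 0.400, 0.325 and 0.401 FPKM in DM, a log2 fold change of −0.29 ± 0.14 (limma, adjusted p = 0.12). COX6B2, an isoform known from testis, had 0.296, 0.941 and 1.36 FPKM in GM and 0.221, 0.351 and 0.178 FPKM in DM, −0.54 ± 0.20 (limma, adjusted p = 0.061). COX6B2 was called without GM replicate 1 (−0.78, limma adjusted p = 0.0029) and with the replicate number as a block (limma, adjusted p = 0.045), and it stood at −1.30 with a pseudocount of 0.1 FPKM. COX8B was called without GM replicate 2 (−0.44, limma adjusted p = 0.011). COX7B2, also known from testis, was the least abundant member, with means of 0.143 FPKM in GM and 0.0621 FPKM in DM, and it was listed at 0 in DM replicate 3. The groups overlapped for COX6A2, COX8B and COX6B2.

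**Figure D4:**
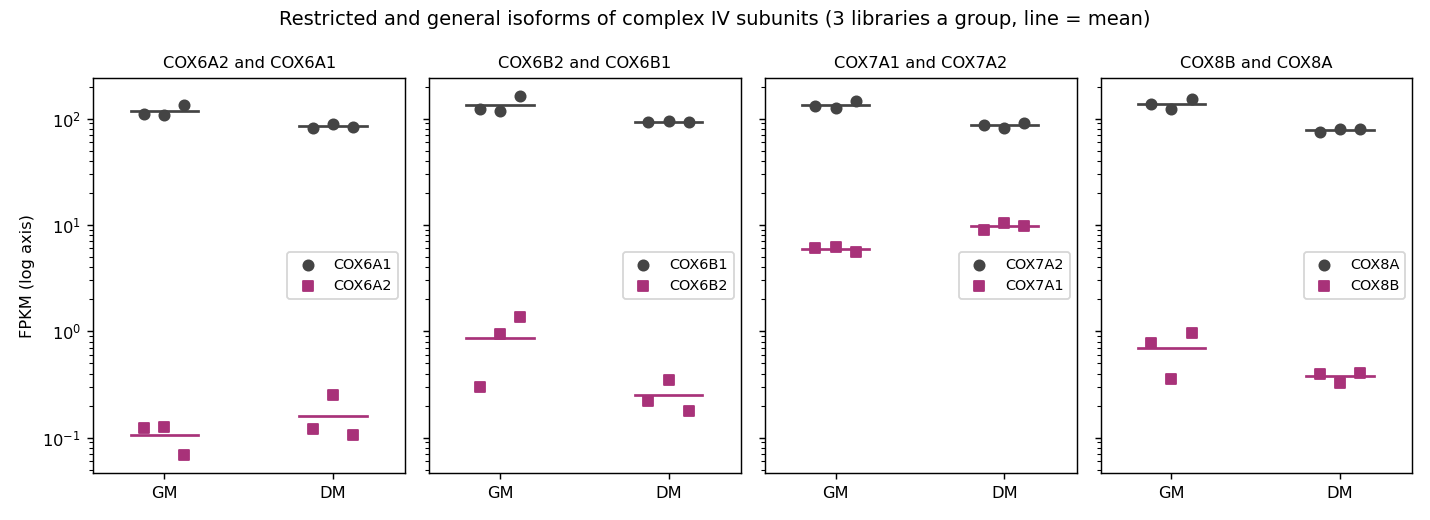
FPKM on a log axis of the general isoform (grey circles) and the restricted isoform (purple squares) of 4 complex IV subunits, 3 libraries a group, with lines at the means. COX7A1 rises from 5.93 to 9.70 FPKM as COX7A2 falls from 134 to 86.3 FPKM, and the other 3 restricted isoforms stay under 1.5 FPKM in each library.

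Isoforms were also compared as ratios within a library, with a pseudocount of 0.1 FPKM. The log2 ratio of COX7A1 to COX7A2 was −4.47 ± 0.19 (SD, n = 3) in GM and −3.14 ± 0.16 in DM, a difference of 1.33, which stayed between 1.22 and 1.41 with 1 library left out. The share of COX7A1 in the summed FPKM of the pair was 4.39%, 4.74% and 3.67% in GM and 9.29%, 11.2% and 9.85% in DM, with no overlap. The exact two-sided permutation test gave p = 0.10, the smallest that 3 against 3 libraries allow, so the design cannot reach 0.05, and the p adjusted over the 4 pairs was 0.20. The other 3 pairs hold an isoform near the pseudocount, and their differences moved with it. COX6A2 to COX6A1 differed by 0.77 (exact permutation p = 0.10), by 0.53 with a pseudocount of 1 FPKM and by 0.53 to 0.91 with 1 library left out. COX6B2 to COX6B1 differed by −0.80 (exact permutation p = 0.30), by −0.04 with a pseudocount of 1 FPKM, by −1.05 with 0.01 FPKM and by −1.28 (without GM replicate 1) to −0.54 (without GM replicate 3) with 1 library left out. COX8B to COX8A differed by 0.13 (exact permutation p = 0.90), and by 0.50 and 0.03 with these pseudocounts. The restricted isoform made up at most 0.835% of these 3 pairs in any library.

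Other genes of oxidative metabolism were taken from lists drawn up beside the members. They were counted on FPKM as deposited and not under other scalings. By the same call 26.7% of all tested genes and 33.8% of those of at least 10 FPKM were lower. ATP synthase, which uses the gradient that the chain makes, fell almost as a whole. Of 18 tested, 17 were lower (94.4%) and none higher by the limma call, and their median log2 fold change was −0.47. The largest falls were those of ATP5ME (−0.65), ATP5MC3 (−0.63) and ATP5IF1 (−0.61), the last an inhibitor of the enzyme. Their summed level was 2203, 2169 and 2538 FPKM in GM and 1610.0, 1672 and 1633 FPKM in DM, with GM replicate 3 the highest here too. All 3 electron carriers tested fell, among them CYCS, cytochrome c, from 128 ± 7.47 to 105 ± 4.55 FPKM (SD, n = 3). A list of subunit genes and related genes that the symbol rule leaves out had 6 entries, with HIGD1A entered more than once. Of these, 3 fell: NDUFAB1 (log2 fold change −0.41), CYC1 (−0.37) and NDUFA4L2. NDUFA4L2, a relative of NDUFA4 induced by hypoxia, fell the most, from 5.82 ± 0.650 to 1.29 ± 0.0695 FPKM (log2 fold change −1.57).

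Genes of the tricarboxylic acid cycle and pyruvate dehydrogenase had 9 of 15 lower (60.0%) and none higher, with a median of −0.31. IDH2 (−0.72), MDH2 (−0.58) and SUCLG2 (−0.58) fell the most. The mitochondrial ribosome had 41 of 77 lower (53.2%) and none higher, with a median of −0.23, led by MRPS24 (−0.82). Assembly factors build the complexes without staying in them. Of 45 tested, 13 fell (28.9%, against 26.7% of all genes) and 1 rose, with a median of −0.14. The copper chaperone COX17 fell from 78.5 ± 19.9 to 44.5 ± 1.43 FPKM, and LYRM7, which helps insert the Rieske protein, rose from 4.33 ± 0.295 to 7.64 ± 0.798 FPKM (log2 fold change 0.70 ± 0.08).

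Of the 12 regulators of mitochondrial biogenesis, 10 were tested. POLRMT, the mitochondrial RNA polymerase (−0.45 ± 0.08), GABPA (−0.30 ± 0.08) and NRF1 (−0.22 ± 0.07), both activators of nuclear respiratory genes, fell, and none rose. These 3 of 10 are 30.0%, against 26.7% of all tested genes. PPARGC1A, the coactivator PGC-1 alpha, was too low to test, at 0.0714 ± 0.0327 FPKM in GM and 0.0751 ± 0.0236 FPKM in DM.

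m6A on these transcripts was read from peaks that the authors called on the pooled libraries of each group, so a peak has 1 fold enrichment of IP over input per group and no replicate error. In GM, 27 of 60 members carried a peak (45.0%), against 57.0% of all genes and 70.2% of genes of at least 10 FPKM. In DM it was 42 of 60 (70.0%), against 63.3% and 79.9%. Among the 55 members of at least 10 FPKM, 23 had a GM peak (41.8%) and 37 a DM peak (67.3%). No test can be made on 1 list a group. All 27 members with a GM peak also had a DM peak, 15 had a peak in the DM list alone (25.0%), and 18 had none. Among genes of at least 10 FPKM, 3658 had peaks in both lists, 109 in GM alone, 627 in DM alone (11.7%) and 971 in neither.

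The 15 members with a peak in the DM list alone were COX4I1, COX7A2, COX7B2, NDUFA5, NDUFA7, NDUFA9, NDUFA12, NDUFB3, NDUFB8, NDUFS4, NDUFS6, SDHC, UQCRB, UQCRC2 and UQCRQ. The DM peak of COX4I1 had a false discovery rate of 0.196. Among members counted in both lists, so had the DM peak of NDUFA11, and the GM peak of COX5B had 0.0933. At a rate under 0.05, 25 members had a peak in both lists, 1 in GM alone, 15 in DM alone and 19 in neither. These are 41.7%, 1.67%, 25.0% and 31.7% of members, against 67.6%, 2.03%, 11.1% and 19.2% of genes of at least 10 FPKM. With peaks kept only at a false discovery rate under 0.05 and a fold enrichment of at least 2, 16 members had a peak in both lists, 2 in GM alone, 8 in DM alone and 34 in neither. These are 26.7%, 3.33%, 13.3% and 56.7% of members, against 55.1%, 3.45%, 8.54% and 32.9% of genes of at least 10 FPKM. At a false discovery rate under 0.001, 20 members had a peak in both lists, 5 in GM alone and 11 in DM alone. These are 33.3%, 8.33% and 18.3% of members, against 65.8%, 2.37% and 9.66% of genes of at least 10 FPKM. Median changes in expression of the 3 classes lay close together, and no test was made of their differences. The median log2 fold change was −0.33 for the 26 tested members with peaks in both lists, −0.41 for the 14 with a DM peak alone and −0.40 for the 18 without any.

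Peaks of the members had a lower median fold enrichment and a shorter median length than those of all abundant genes. The 24 GM peaks of members of at least 10 FPKM had a median fold enrichment of 2.10, against 2.72 for the 6369 peaks of all genes in that class, and the 48 DM peaks 2.00 against 2.71. Median exon length of member peaks was 176 nucleotides in GM and 224.5 in DM, against 386 and 450 in the class. The authors' annotation put 25 of 30 member peaks in the 3′ UTR in GM (83.3%) and 30 of 54 in DM (55.6%), with 5 (16.7%) and 19 (35.2%) in the 5′ UTR. For peaks of all genes of at least 10 FPKM the 3′ UTR shares were 48.9% and 53.8%, and the 5′ UTR shares 21.5% and 22.9%. These transcripts are short, and 1 of the 5 and 8 of the 19 peaks labelled 5′ UTR end within 100 bases of the 3′ end of their gene. Of all member peaks, 22 of 30 in GM and 35 of 54 in DM end that close to it. No such share was computed for peaks of other genes.

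The 5 members with the strongest peaks at a false discovery rate under 0.05 were COX6A2, COX7A1, NDUFV1, COX6A1 and COX7B2. COX6A2 carried a GM peak of 8.71-fold, 61 nucleotides long, in the 3′ UTR at chr25:27480239-27480299 (ARS-UCD1.2, minus strand), with a false discovery rate of 0.0251. It overlaps a DM peak of 5.86-fold (0.0240) and a DM peak of 2.72-fold at chr25:27480232-27480617 (0.0200). All were measured on a gene at about 0.1 FPKM. NDUFV1, the flavoprotein that binds NADH, carried a GM peak of 6.53-fold at chr29:45455657-45462401 (plus strand), annotated to the 5′ UTR and 540 nucleotides long in 2 exon blocks. Its DM peak from the same start was 7.45-fold but had a false discovery rate of 0.132, and a second DM peak of 3.99-fold at chr29:45462071-45462281, inside the GM peak, had one of 0.0214. COX6A1 carried a DM peak of 6.39-fold at chr17:62732323-62744082 (plus strand, 5′ UTR) and COX7B2 one of 6.39-fold at chr6:65334350-65334497 (minus strand, exon), with false discovery rates of 0.0158 and 0.0447.

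In 21 members exactly 1 GM peak overlapped exactly 1 DM peak. None of these pairs was over 1.5-fold higher in DM (background 14.2% of all 10239 pairs) and 1 was over 1.5-fold lower (4.76%, background 10.8%). For the 4144 pairs of genes of at least 10 FPKM these backgrounds were 8.40% and 5.91%. The DM value was the larger in 12 and the smaller in 9, with a median log2 ratio of 0.03 against 0.07 for all pairs. SDHA, for example, had 4.34 in GM and 3.77 in DM over the same 330 nucleotides of its 3′ UTR, and UQCR11 had 3.50 and 3.80.

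**Figure D5:**
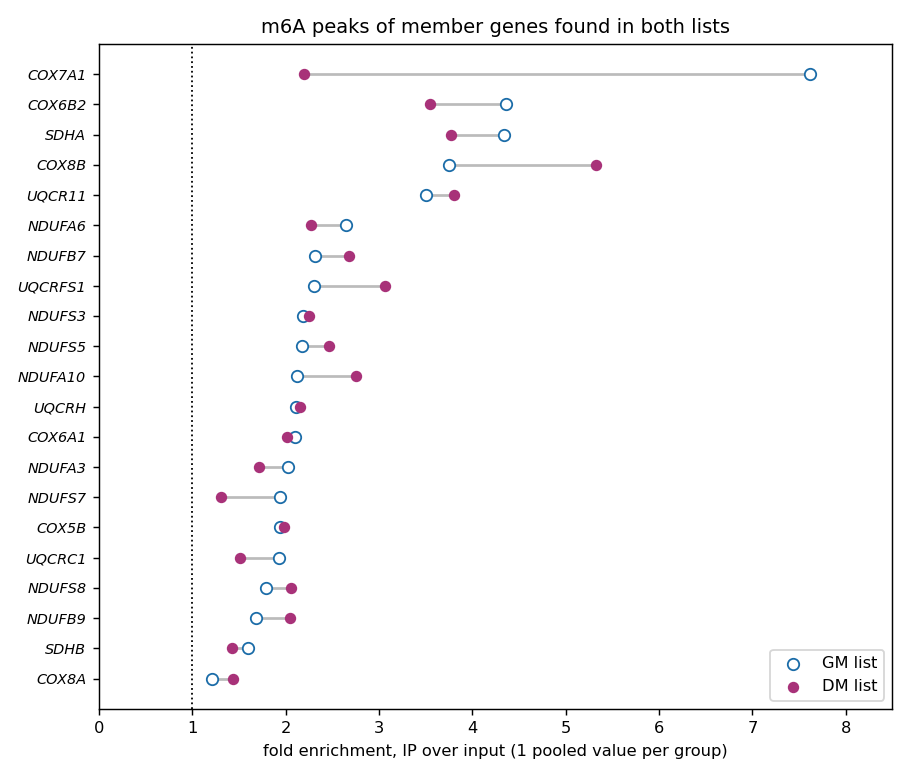
Fold enrichment of IP over input for the 21 members with 1 GM peak (open blue) overlapping 1 DM peak (purple), 1 pooled value per group and so without error bars; the dotted line marks no enrichment. COX7A1 drops from 7.62 to 2.20, and the other 20 pairs differ by less than 1.5-fold.

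The pair that changed was that of COX7A1, the member whose mRNA rose. Its GM peak of 7.62-fold covered 497 nucleotides in 4 exon blocks at chr18:46806420-46808127 (minus strand), nearly the whole gene, and its DM peak of 2.20-fold covered 176 nucleotides within it. The DM peak spans 35.4% of the GM peak, so the ratio of 0.289 compares windows of unequal length. When both peaks had to share at least 50% of their length, 17 pairs remained, COX7A1 was not among them and none changed by over 1.5-fold. For genes of at least 10 FPKM, 6.66% of such pairs were higher and 6.21% lower by as much.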

How the data were processed

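Libraries were dUTP strand-specific. The authors aligned reads with HISAT2 to ARS-UCD1.2 and computed the deposited FPKM with StringTie for the 6 inputs, whose strand setting and versions are not given in the sources used here. The submitters' processing notes name cutadapt and fastp, the methods Trimmomatic. For m6A, the methods state that uniquely mapped reads without duplicates were kept (Sambamba), which they do not state for FPKM. The authors called peaks with exomePeak on pooled libraries and annotated them with ChIPseeker. Deposited fold enrichment is their linear ratio of IP over input, the deposited peak p-value is unadjusted, and the log10 p and log10 false discovery rate columns are kept as deposited score values. No read counts per gene come with the FPKM, so precision is the spread of 3 libraries.

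Expression was tested in R 4.3.3 with limma 3.58.1 (moderated variances with a trend) on log2(FPKM + 1), for genes whose mean reached 0.5 FPKM, in the 3 GM against the 3 DM inputs. Fold changes are on that scale, which understates changes of low genes. A call is a Benjamini-Hochberg adjusted p under 0.05 over all tested genes. Isoform ratios used a pseudocount of 0.1 FPKM and an exact permutation test, adjusted over 4 pairs. Peaks were paired by at least 1 shared base of exon blocks on the same strand, using scipy 1.17.1, numpy 2.4.6 and pandas 2.3.3 under Python 3.11.15, and plotted with matplotlib 3.10.9. Scripts were tested on simulated data.

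The members and lists were chosen with earlier results of these data known. Values are given for isoform pairs and COX7A2L, the SDH genes, the 5 largest called rises and falls of complexes I, III and IV, the highest and lowest member of each complex, untested members, changed peak pairs and the 5 strongest peaks, and for at most 3 rises and falls of another list. Other members were named after their values were seen. Alternatives covered pseudocount, filter, scaling, call rule, replicate block, trend, each library left out and stricter peaks. No sequence was used here. Values of 1 member are not reported here, and it is left out of the figures of single members, while it stays in the fits and counts. Overlapping genes in the table, on the same strand for NDUFA13 and SDHA and on the opposite strand for COX4I1, COX8B, NDUFA2, NDUFB5, NDUFB9, NDUFB10, NDUFS5, SDHD and UQCRC2, may share reads with these members.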

Additional observations from a re-analysis of the deposited data

How the results depend on the processing

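Of the 58 tested members, 25 were lower and COX7A1 was higher by the limma call in all 16 settings fitted. The share of all genes called in every setting was not computed. With TPM 29 members were lower, beside 16.6% of all tested genes. Of the 29, 2 were lower by over 1.5-fold, and the member median was −0.25. With TPM and GM replicate 3 left out together, a setting chosen after seeing the data, 3 were higher (SDHA and SDHB with COX7A1), 31 lower, 2 of these by over 1.5-fold, and the median was −0.19. Of all tested genes, 23.4% were higher and 19.2% lower in that setting. Requiring a fold change over 1.5 beside an adjusted or an unadjusted p under 0.05 left 6 lower. Leaving out 1 library gave 29 (without DM replicate 1) to 44 lower, 4 (without GM replicate 3) to 12 (without GM replicate 1) lower by over 1.5-fold, 0 (without GM replicate 3 or DM replicate 2) to 1 higher by over 1.5-fold, and a median of −0.41 to −0.30. Of all tested genes, 21.4% (without DM replicate 1) to 28.3% (without GM replicate 3) were lower in these fits. The COX8B to COX8A difference ran from −0.16 to 0.30 with 1 library left out. SDHA turned to 0.10 with TPM, 0.041 with size factors and 0.14 with TPM and GM replicate 3 left out, where NDUFA3 (0.11), NDUFA6 (0.064), NDUFB10 (0.031) and NDUFB3 (0.024) also turned. With 1 library left out, SDHA ran from −0.054 to 0.038, SDHB from −0.035 to 0.12 and NDUFA3 from −0.33 to 0.0065. At a false discovery rate under 0.05 and a fold enrichment of at least 2, 24 members had a DM peak. Peak pairs lower by over 1.5-fold numbered 0 with 50% overlap and 2 with both peaks at a false discovery rate under 0.05 or with ratios centred on the median of all pairs. For genes of at least 10 FPKM the lower shares were 6.21%, 5.68% and 7.67% in these settings. The cause of these moves was not tested. Replicate numbers did not pair the libraries (correlations of same-numbered deviations −0.08, −0.12 and −0.21). With the replicate number as a block 40 members were lower and 1 higher, beside 23.3% and 13.4% of all tested genes. The paper lists mapped reads for each library, but no read counts per gene came with the FPKM. The precision of levels near 0.1 FPKM was therefore not estimated.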
